A study of Mus musculus with 12 samples.

Results

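The genes of glycolysis and of the response to low oxygen were followed in the mouse embryonic stem cell line R1, in 1 line with a scrambled control sequence and 2 lines in which SET was knocked down. SET is a nuclear histone chaperone and an inhibitor of the phosphatase PP2A. The genes formed a list of 41 members: glucose and lactate transporters, the glycolytic enzymes, regulators of glycolytic flux, subunits of the hypoxia-inducible factors (HIF) with their prolyl hydroxylases, and effectors of the hypoxia response. A gene was represented by the brightest probe set annotated to its symbol alone, by the mean over all arrays, and 38 of the 41 members had one among 19938 genes measured this way. Gapdh was covered only by 25 probe sets that list several symbols, and Gpi1 and Eno1 had no probe set in the annotation used, so these 3 genes are not analysed here. RNA of each sample was hybridised to its own Affymetrix gene array, which has 1 colour. The 6 groups of 2 arrays each (12 arrays in all) were ESC Scrambled, ESC KD1, ESC KD2, RA Scrambled, RA KD1 and RA KD2. ESC are the growing stem cells, kept in 15% fetal bovine serum with 1000 U/ml leukemia inhibitory factor. RA are cells taken 4 days after a switch to retinoic acid (1 µM), with serum at 10% and that factor withdrawn, so the 3 changes of medium cannot be told apart. KD1 and KD2 are 1 line each and the scrambled control is another, so the effect of a line and that of its knockdown cannot be told apart either. The oxygen level of the cultures is not given in the sources used here.

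As background, glycolysis turns glucose into pyruvate, and lactate dehydrogenase turns pyruvate into lactate, which leaves the cell through monocarboxylate transporters. HIF is a pair of an alpha subunit, HIF-1alpha (Hif1a) or HIF-2alpha (Epas1), and the partner ARNT. In oxygen the prolyl hydroxylases of the Egln genes mark the alpha subunit for degradation, and in low oxygen the pair binds DNA at a short core sequence and raises many genes of glycolysis and of oxygen supply. This control acts on the protein, which an array of RNA does not measure. Mouse embryonic stem cells are known to use glycolysis alongside respiration, and the balance shifts as they leave the stem cell state.

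The deposited values were log2 signals from RMA, with array medians from 7.17 to 7.24. Probe set 10470893, which covers Set together with BC085271, was lower in KD1 than in scrambled cells in ESC (log2 difference -0.78, SE 0.09, adjusted p = 0.00513 by limma) and in RA (-1.06, SE 0.09, adjusted p = 0.000247). In KD2 it was not called on 12 arrays, with -0.81 in ESC (adjusted p = 0.074) and -0.44 in RA (adjusted p = 0.298), and on 10 arrays it was called in ESC (-0.67, adjusted p = 0.0374) and not in RA (-0.59, adjusted p = 0.0681). Probe set 10587486, which covers the same symbols, gave -0.75 in ESC (adjusted p = 0.00793) and -0.95 in RA (adjusted p = 0.000611) for KD1. For KD2 on 12 arrays it gave -0.90 in ESC (adjusted p = 0.122) and -0.40 in RA (adjusted p = 0.373). Probe sets 10470905 and 10470907, annotated to Set alone, were not called in either line, with -0.59 and -0.32 in ESC and 0.10 and 0.24 in RA for KD1. These were dimmer, at most 8.82 against at least 11.16 for the shared probe sets, so the probe sets of Set disagree. The arrays of one replicate number in KD2 resembled the state opposite to their label: ESC KD2 replicate 2 (mean correlation 0.952 with the other ESC arrays and 0.986 with the RA arrays) and RA KD2 replicate 2 (0.952 with RA and 0.986 with ESC). The comparisons of scrambled and KD1 were therefore fitted on their own 8 arrays. Comparisons that involve KD2 were fitted on all 12 arrays as labelled, with the fit on 10 arrays, without those 2, given beside it. The states were checked on listed markers, chosen with earlier results of these data known, so the check is not an independent one. From ESC to RA in scrambled cells 13 of 14 naive stem cell markers fell and 14 of 14 measured retinoic acid markers rose. Over all genes 20.8% fell and 21.7% rose. In bulk RNA, fewer cells of a type and less RNA per cell cannot be told apart. Signals of different probe sets are not on a common scale, so levels are compared only within a gene.

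The stretches before a start of 6 of the genes are shown because they carry the HIF core sequence and belong to genes that differed between KD1 and scrambled cells in RA. Each runs 5′ to 3′ on the gene's strand, from RefSeq on GRCm38.p6, and ends at the base before the start that the promoter entry lists, or for P4ha1 before the start of the annotated gene, which lies further upstream. Ldha has more than 1 entry, of which the one with the lower coordinate is shown, and its stretch lies inside the annotated gene, which begins upstream at base 46842274. Capitals mark ACGTG and GCGTG on either strand, and CACGTG counts on both.
Pfkl (chr10:78009808-78009937, minus strand): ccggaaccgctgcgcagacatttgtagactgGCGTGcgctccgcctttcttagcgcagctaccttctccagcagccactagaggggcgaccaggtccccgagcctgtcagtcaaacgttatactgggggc
Ldha (chr7:46845644-46845803, plus strand): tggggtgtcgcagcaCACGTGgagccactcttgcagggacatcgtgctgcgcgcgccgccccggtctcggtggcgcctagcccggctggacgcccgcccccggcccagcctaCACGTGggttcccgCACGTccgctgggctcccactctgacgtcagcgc
Pgk1 (chrX:106186940-106187099, plus strand): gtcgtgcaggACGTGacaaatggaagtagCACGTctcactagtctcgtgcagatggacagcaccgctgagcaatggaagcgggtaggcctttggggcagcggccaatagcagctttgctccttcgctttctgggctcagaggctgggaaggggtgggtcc
P4ha1 (chr10:59323126-59323196, plus strand): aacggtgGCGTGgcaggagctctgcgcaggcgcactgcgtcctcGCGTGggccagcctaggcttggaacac
P4ha2 (chr11:54100804-54100923, plus strand): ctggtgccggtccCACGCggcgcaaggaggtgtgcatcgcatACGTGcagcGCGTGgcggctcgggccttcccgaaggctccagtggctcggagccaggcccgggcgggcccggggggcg
Adm (chr7:110627557-110627656, plus strand): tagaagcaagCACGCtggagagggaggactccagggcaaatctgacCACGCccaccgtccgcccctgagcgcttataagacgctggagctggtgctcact
The Ldha stretch held 5 matches and the Pfkl stretch 1. The P4ha1 entry held a further match, to ACGTG, closer to its listed start and outside the stretch shown. RefSeq promoter entries matched 39 of the 41 members by symbol and gave 57 promoters. Of these, 45 (78.9%) held at least 1 match within 250 bases before the listed start, against 38.6% of 32851 promoters of that length, and the median share of G and C was 60.4% against 52.4%. Whether base composition sets the difference was not tested. Of the members with an entry, 10 of 11 that rose in KD1 against scrambled cells in RA held a match, as did 23 of 24 that were not called in that comparison and Adm, which fell. A match is a run of letters and says nothing about binding.

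In scrambled cells, RNA for most enzymes of glycolysis and for 3 of 4 transporters was lower in RA than in ESC, while some genes of the HIF pathway rose. Of the 38 measured members 20 fell and 7 rose, where a call is an adjusted p below 0.05 by limma. Over all genes 42.6% were called, 20.8% as fallen and 21.7% as risen. The members' median log2 difference was -0.55, against -0.04 over all genes. With all 12 arrays in the fit, 15 members fell and 1 rose, and 13.8% of genes were called, 5.66% as fallen and 8.14% as risen.

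**Figure D1:**
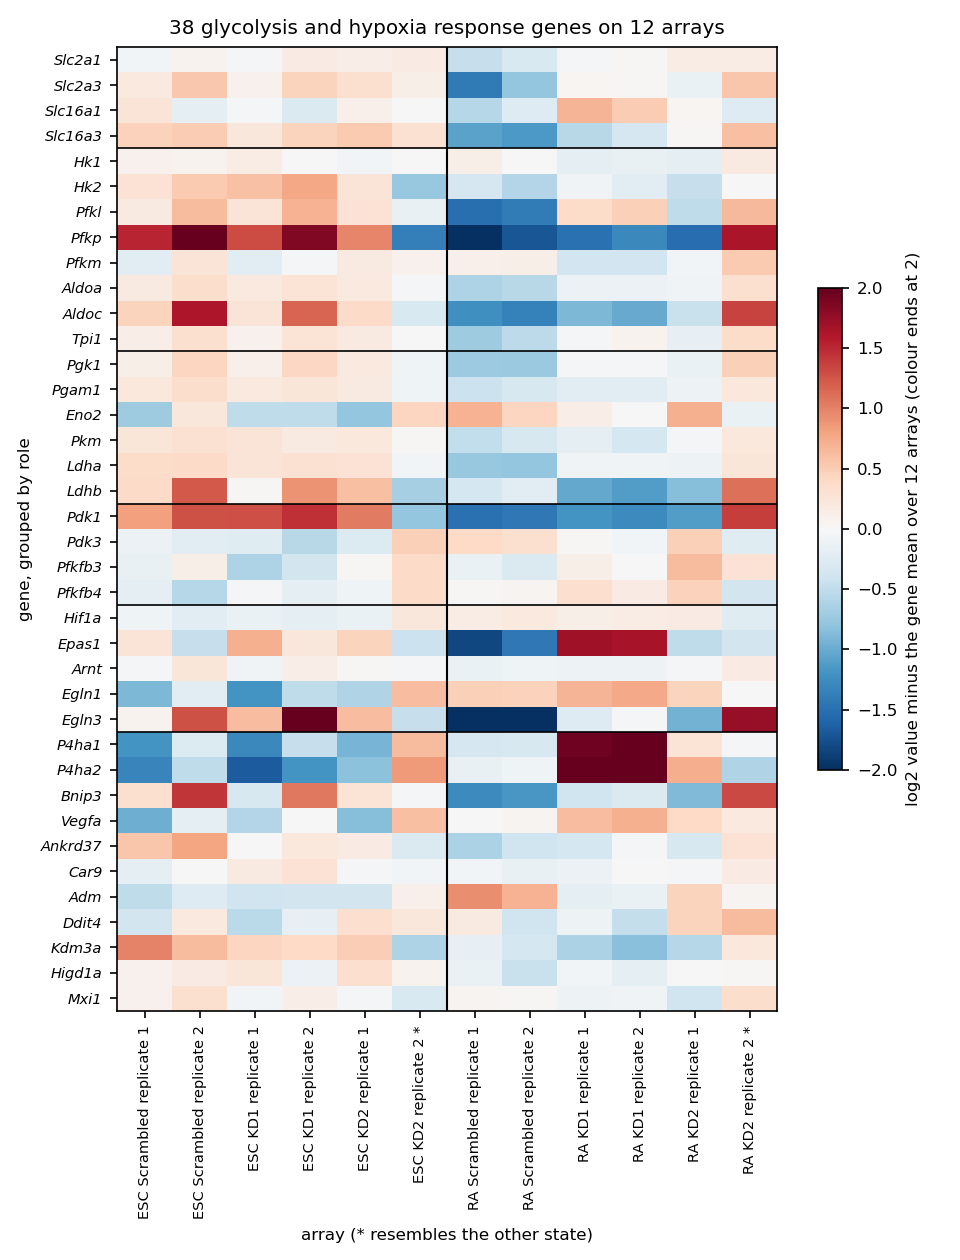
Signal of the 38 measured members (rows, grouped by role) on the 12 arrays (columns), as log2 signal minus the gene's mean over the arrays, with the colour ending at 2 either way. Asterisks mark ESC KD2 replicate 2 and RA KD2 replicate 2, whose columns resemble the other state. Most glycolytic rows are higher on the ESC arrays of the scrambled line than on its RA arrays. The 20 members that fell in that line belong to several roles.

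Among the transporters, Slc2a3, which encodes the glucose transporter GLUT3, read 12.93 and 13.29 on the scrambled ESC arrays and 11.32 and 11.97 on the RA arrays (log2 difference -1.46, SE 0.20, adjusted p = 0.000378). Slc16a3, the lactate exporter MCT4, read 11.45 and 11.50 and then 9.92 and 9.84 (log2 difference -1.59, SE 0.12, adjusted p = 9.5e-06). Both fell well below their ESC arrays. Slc2a1, the glucose transporter GLUT1, moved less, from 13.19 and 13.33 to 12.79 and 12.94 (log2 difference -0.39, SE 0.08, adjusted p = 0.00331). Slc16a1, the transporter MCT1, was not called, with 11.59 and 11.13 in ESC and 10.75 and 11.07 in RA (log2 difference -0.45, SE 0.17, adjusted p = 0.0569).

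In the steps of glycolysis down to triose phosphate 6 of 8 measured enzymes fell and 0 rose. The phosphofructokinase genes, whose enzyme catalyses the committed step, differed from each other. Pfkp, the platelet type, read 11.43 and 12.09 in ESC and 7.79 and 8.19 in RA, 13.6-fold lower (log2 difference -3.77, SE 0.25, adjusted p = 5.81e-06), the widest fall among the members. Pfkl, the liver type, went from 11.39 and 11.85 to 9.70 and 9.82 (log2 difference -1.86, SE 0.17, adjusted p = 3.88e-05). Pfkm, the muscle type, overlapped between the states (0.09, adjusted p = 0.695). The aldolase genes both fell. Aldoc read 9.81 and 10.98 and then 8.15 and 8.02 (log2 difference -2.32, SE 0.37, adjusted p = 0.000908). Aldoa, the more widely expressed isoenzyme, read 13.36 and 13.53 and then 12.57 and 12.63 (log2 difference -0.84, SE 0.06, adjusted p = 1.13e-05). The scrambled ESC arrays lay further apart for Aldoc than for Aldoa. Hk2, an inducible hexokinase, fell by 0.86 on the log2 scale and triose phosphate isomerase Tpi1 by 0.85. Hk1, the constitutive hexokinase, was not called (-0.02, adjusted p = 0.818), but its dimmer second probe set gave -0.62 (adjusted p = 0.0361), so the probe sets disagree.

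In the later steps, from phosphoglycerate kinase to lactate, 5 of 6 measured genes fell and 1 rose. Ldha, the lactate dehydrogenase subunit favoured in glycolytic cells, read 13.39 and 13.40 in ESC and 12.27 and 12.24 in RA (log2 difference -1.14, SE 0.05, adjusted p = 5.78e-07), a fall far wider than the spread of either pair. Ldhb, the other main subunit, read 11.73 and 12.57 and 10.99 and 11.11 (log2 difference -1.10, SE 0.30, adjusted p = 0.0148). Its ESC arrays differed by more than its RA arrays did. Pgk1, phosphoglycerate kinase, read 12.84 and 13.17 and 12.01 and 11.99 (log2 difference -1.003, SE 0.12, adjusted p = 0.000144). Pgam1 fell by 0.65 and pyruvate kinase Pkm by 0.68 on the log2 scale. Pgk1 and Pgam1 each have 3 probe sets, some with equal values, so these signals may be shared with near-identical copies of the genes. Eno2, the neuronal enolase, was the one that rose, from 7.27 and 8.21 to 8.69 and 8.41 (log2 difference 0.81, SE 0.26, adjusted p = 0.0307), a call lost in 3 of the 4 fits that left out 1 array (all but the one without ESC Scrambled replicate 2). The Ldhb call was lost in 3 of those fits (all but the one without ESC Scrambled replicate 1).

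The regulators of flux split. Pdk1, a kinase that shuts pyruvate dehydrogenase, read 11.06 and 11.51 in ESC and 8.75 and 8.81 in RA, 5.69-fold lower (log2 difference -2.51, SE 0.15, adjusted p = 3.77e-06). Its relative Pdk3 rose, from 10.88 and 10.78 to 11.40 and 11.32 (log2 difference 0.53, SE 0.12, adjusted p = 0.00547). The isoenzymes thus moved in opposite directions. Pfkfb4, which sets the level of the phosphofructokinase activator fructose 2,6-bisphosphate, read 7.26 and 6.90 and then 7.49 and 7.51 (log2 difference 0.42, SE 0.14, adjusted p = 0.0416), a call lost without ESC Scrambled replicate 2 and without either RA Scrambled array. Pfkfb4 was also dim, with its highest group mean at 7.71, below the median of 7.86 over all gene values. Pfkfb3 of the same family was not called (-0.19, adjusted p = 0.336).

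Among the HIF genes the alpha subunits also parted. Epas1 read 11.05 and 10.33 on the scrambled ESC arrays and 8.98 and 9.37 in RA (log2 difference -1.52, SE 0.24, adjusted p = 0.000867), whereas Hif1a rose by 0.32 (SE 0.07, adjusted p = 0.00533) and Arnt was not called (-0.22, adjusted p = 0.143). Of the prolyl hydroxylases, Egln3 (PHD3) read 10.01 and 11.21 and then 7.44 and 7.84, 7.8-fold lower (log2 difference -2.96, SE 0.46, adjusted p = 0.000722). Egln1 (PHD2), the main oxygen sensor, rose from 9.10 and 9.79 to 10.48 and 10.46 (log2 difference 1.02, SE 0.25, adjusted p = 0.00988), a call lost without RA Scrambled replicate 1 (adjusted p = 0.0568). The pair of hydroxylase genes thus moved in opposite directions, as did the alpha subunits.

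Of the 11 effectors 3 fell and 2 rose. Bnip3, a mediator of mitophagy, read 10.91 and 12.01 in ESC and 9.31 and 9.42 in RA (log2 difference -2.09, SE 0.43, adjusted p = 0.00366). Ankrd37 fell by 1.19 and the histone demethylase gene Kdm3a by 1.08. Adm, which encodes the vasoactive peptide adrenomedullin, rose from 6.35 and 6.60 to 7.79 and 7.56 (log2 difference 1.20, SE 0.13, adjusted p = 7.75e-05). P4ha2, a subunit of the collagen prolyl 4-hydroxylase, rose from 7.66 and 8.47 to 8.84 and 8.89 (log2 difference 0.80, SE 0.25, adjusted p = 0.0281), a call lost in 3 of the 4 fits that left out 1 array (all but the one without ESC Scrambled replicate 2). Its paralogue P4ha1 was not called and its arrays overlapped (0.41, adjusted p = 0.33), and Vegfa stood at 0.61 (adjusted p = 0.0915). Car9, a carbonic anhydrase often used as a readout of HIF, was dim on every array, from 5.88 to 6.36, below the median of 7.86 over all gene values, and was not called (-0.003, adjusted p = 0.985). Adm was dim too, with its highest array at 7.79, below that median.

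In KD1 cells the fall from ESC to RA took in fewer glycolytic genes, and both collagen prolyl hydroxylases and Epas1 rose. Of the 38 members 13 fell and 9 rose, where over all genes 41% were called, 20.8% as fallen and 20.3% as risen. The members' median was -0.21, against -0.08 over all genes. Of the 20 that fell in scrambled cells, 12 also fell in KD1, 7 were not called and 1, Epas1, rose. The lines share no arrays in these comparisons, and the difference between the lines is tested as an interaction further on. With all 12 arrays in the fit, 3 fell and 5 rose in KD1, and 11.3% of genes were called, 4.26% as fallen and 7.02% as risen.

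Falls of similar size in both lines were seen for Pdk1, with -2.61 in KD1 (arrays 11.52 and 11.70 in ESC and 9.04 and 8.96 in RA), and for Hk2 (-0.82) and Kdm3a (-1.15). Pfkp fell by 2.98 in KD1, from 11.21 and 11.76 to 8.41 and 8.61. Ldhb read 11.37 and 12.24 and then 10.31 and 10.22 in KD1 (log2 difference -1.54, SE 0.30, adjusted p = 0.00296), and Aldoc 9.62 and 10.54 and then 8.47 and 8.37 (log2 difference -1.66, SE 0.37, adjusted p = 0.00634). All of these KD1 RA arrays lay below the KD1 ESC arrays. The members that fell in scrambled cells and were not called in KD1 were Slc2a1 (-0.07), Slc2a3 (-0.23), Pfkl (-0.06), Tpi1 (-0.15), Pgk1 (-0.28), Bnip3 (-0.72) and Ankrd37 (-0.29). Bnip3 read 10.27 and 11.65 in KD1 ESC and 10.19 and 10.29 in KD1 RA, where the arrays overlapped.

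The largest rises in KD1 were of P4ha2, from 7.31 and 7.78 to 11.39 and 11.34 (log2 difference 3.82, SE 0.25, adjusted p = 5.48e-06), and of P4ha1, from 9.33 and 10.15 to 12.56 and 12.61 (log2 difference 2.84, SE 0.30, adjusted p = 9.76e-05). Epas1 rose from 11.51 and 11.02 to 12.49 and 12.45 (log2 difference 1.21, SE 0.24, adjusted p = 0.00344), and Slc16a1 from 11.30 and 11.04 to 12.004 and 11.84 (log2 difference 0.75, SE 0.17, adjusted p = 0.00637). Egln1 rose in KD1 as it did in scrambled cells, from 8.80 and 9.49 to 10.68 and 10.76 (log2 difference 1.57, SE 0.25, adjusted p = 0.00105). Vegfa (0.95), which encodes the angiogenic factor VEGF-A, Pfkfb3 (0.54), Pdk3 (0.38) and Hif1a (0.29) completed the 9. The calls of Vegfa, Pfkfb3, Pdk3 and Hif1a were each lost in 3 of the 4 fits that left out 1 array, that of Slc16a1 without RA KD1 replicate 1 (adjusted p = 0.0593), and that of Egln3, which fell (-1.45), in 3 of 4. Hk1 fell in KD1 (-0.23, adjusted p = 0.0133), and its call was lost in 3 of 4 as well. Eno2, Pfkfb4 and Adm, which rose in scrambled cells, were not called in KD1, with 7.49 and 7.48 and then 8.13 and 7.998 for Eno2, 7.43 and 7.28 and then 7.79 and 7.62 for Pfkfb4, and 6.47 and 6.49 and then 6.68 and 6.72 for Adm.

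**Figure D2:**
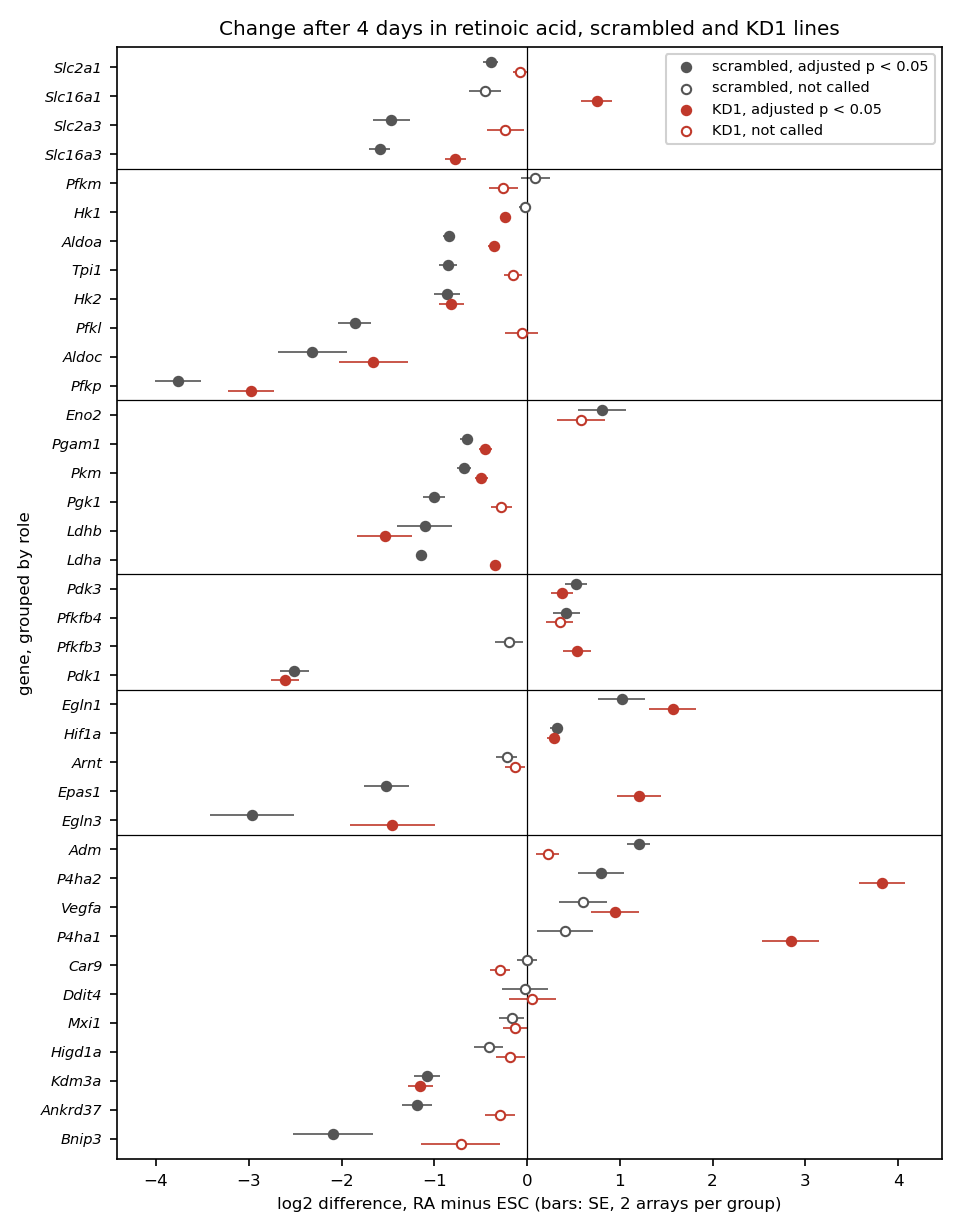
Log2 difference RA minus ESC for each of the 38 members in scrambled and KD1 cells, from 2 arrays per group, with bars for the standard error and filled symbols for members called at an adjusted p below 0.05. Pfkp and Pdk1 lie far below 0 in both lines, whereas Epas1 lies at -1.52 in scrambled and 1.21 in KD1 cells.

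Between KD1 and scrambled stem cells no member was called. By limma, with the arrays taken as unpaired, 0 of 38 members passed, with 5 at an unadjusted p below 0.05, where 1.94% of all genes were called and 3139 of 19938 had an unadjusted p below 0.05. The lowest adjusted p among members was 0.133, for Ankrd37 (log2 difference -0.57, SE 0.16). The members' median was -0.09, against 0.02 over all genes. For the transporters and enzymes the 95% interval of the difference was narrow in places, from -0.20 to 0.00 for Ldha, from -0.17 to 0.12 for Aldoa and from -0.11 to 0.24 for Slc2a1. It was wide in others, from -1.48 to 0.47 for Bnip3 and from -0.39 to 1.67 for Egln3. Epas1 stood at 0.57 (SE 0.24, 95% interval 0.03 to 1.12, adjusted p = 0.294), with 11.51 and 11.02 in KD1 beside 11.05 and 10.33 in scrambled cells, so the arrays overlapped. Without ESC Scrambled replicate 1, Epas1 (0.94, adjusted p = 0.04995) and P4ha2 (-0.93, adjusted p = 0.0393) passed.

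Several members differed between the replicates in the same direction in both lines. On the ESC arrays of both lines, 28 of 38 members (73.7%) were higher on replicate 2 than on replicate 1, against 31.4% of all genes. By more than 0.5 in both lines there were 8 members (21.1%, against 2.00% of all genes), namely Egln3, Aldoc, Bnip3, P4ha1, Ldhb, Vegfa, Egln1 and Pfkp, and 0 were lower by that much. Egln3 read 10.01 on replicate 1 and 11.21 on replicate 2 in scrambled ESC, and 10.56 and 11.93 in KD1 ESC. P4ha1 read 9.42 and 10.34 in scrambled ESC and 9.33 and 10.15 in KD1 ESC. Replicate 2 was the higher in each of these pairs. On the RA arrays 11 of 38 members (28.9%) were higher on replicate 2 in both lines, near the 25.5% of all genes, and 0 by more than 0.5. This pattern was picked after the values were seen and was not tested, and the labels name no shared day or batch for the replicate numbers.

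**Figure D3:**
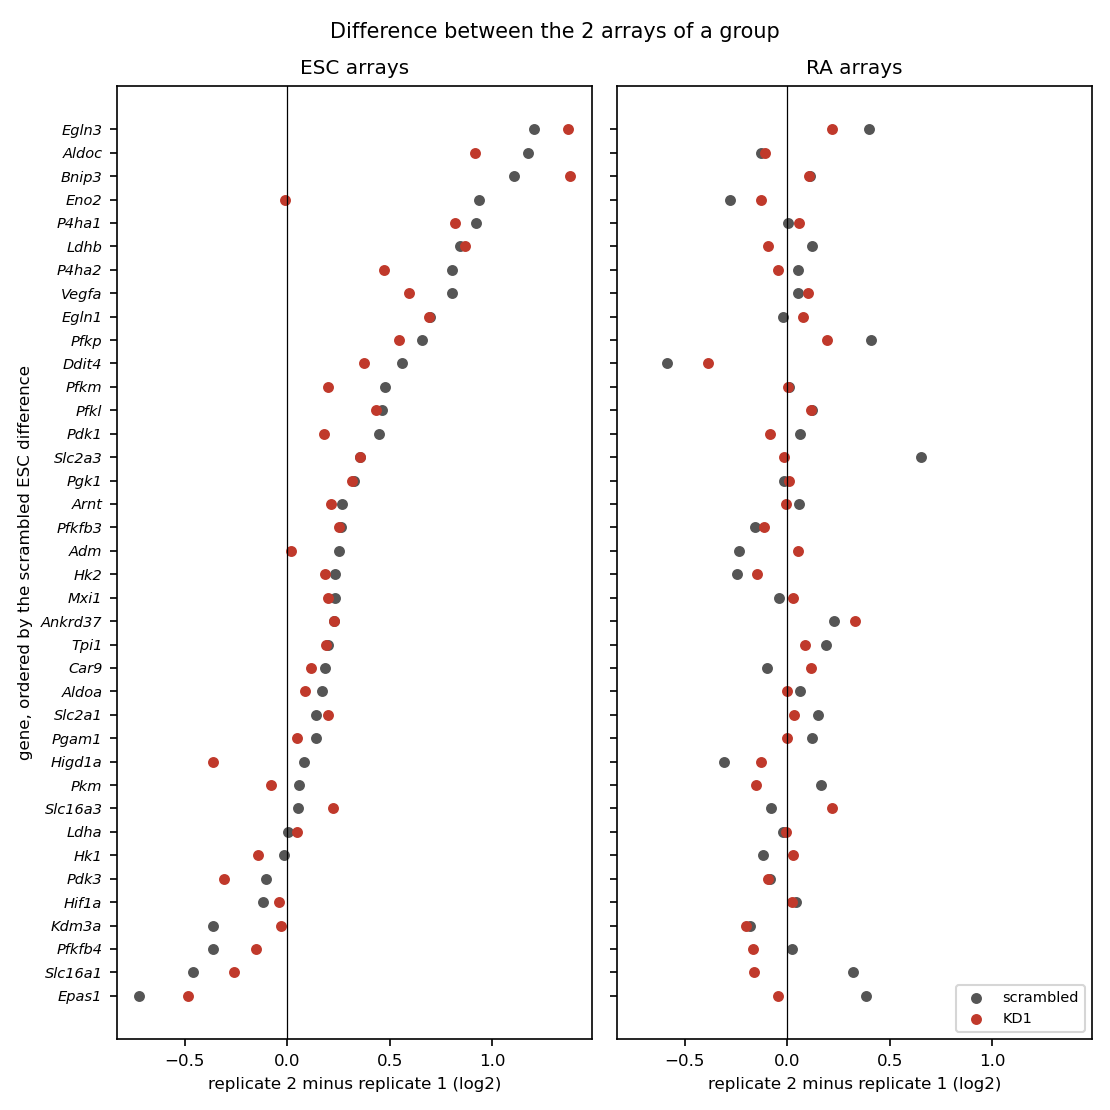
Difference replicate 2 minus replicate 1 (log2, horizontal axis) of each member, with separate points for scrambled and KD1, for ESC and for RA. Members are in rows, ordered by the scrambled ESC difference. In ESC both points lie above 0 for 28 of 38 members, and in RA for 11.

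After retinoic acid, KD1 cells held more RNA than scrambled cells for all 4 transporters, for 5 of the glycolytic enzymes and for Epas1, Egln3 and both collagen prolyl hydroxylases. Of the 38 members 13 rose and 1, Adm, fell. Over all genes 12.1% were called, 5.39% as risen and 6.69% as fallen, where 34.2% of members rose. The genes behind these shares differ in brightness. The highest group mean lay above 7.86, the median of all gene values, for 34 of 38 members. For this comparison no share over bright genes alone is given. The members' median was 0.29, with 28 above 0, against -0.01 over all genes. With all 12 arrays in the fit 5 rose (Slc2a1, Slc16a1, Pfkl, Ldha and Epas1) and Adm fell, with 2.32% of genes called, 1.58% as risen and 0.742% as fallen. Leaving out RA KD1 replicate 2 gave 8 called members.

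**Figure D4:**
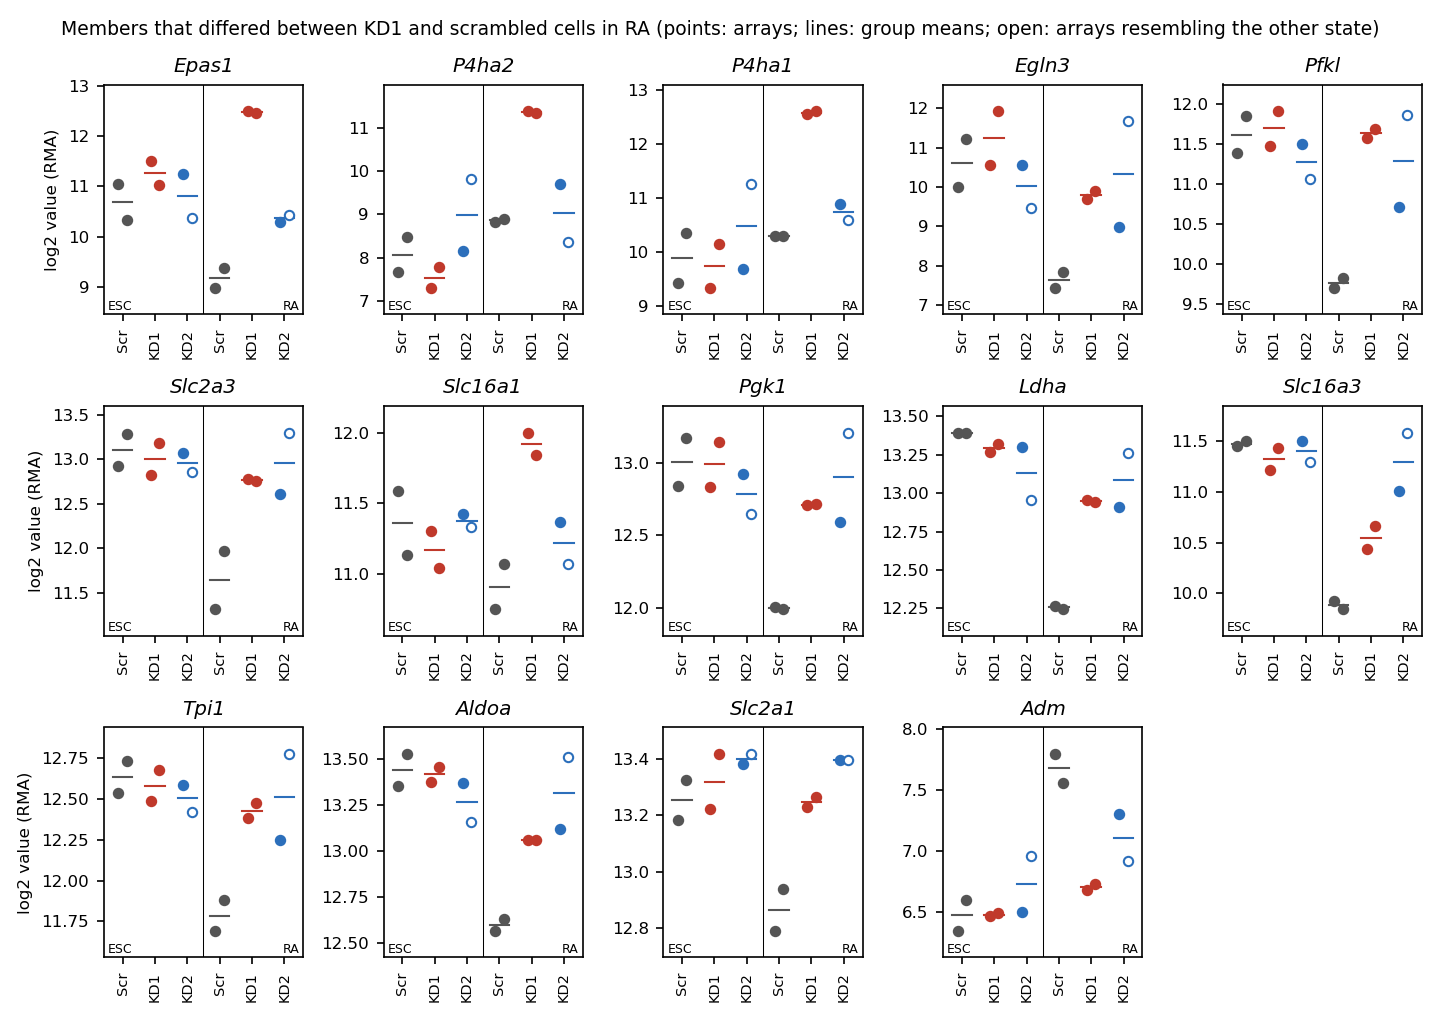
Log2 signal on each of the 12 arrays for the 14 members called between KD1 and scrambled cells in RA, with open symbols for ESC KD2 replicate 2 and RA KD2 replicate 2. Both RA KD1 arrays lie above both RA Scrambled arrays in the 13 members that rose and below them in Adm.

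Epas1 differed most. It read 12.49 and 12.45 on the KD1 RA arrays and 8.98 and 9.37 on the scrambled RA arrays, 9.83-fold higher (log2 difference 3.30, SE 0.24, adjusted p = 6.57e-05). The KD1 RA arrays also lay above both scrambled ESC arrays. Hif1a and Arnt were not called between the lines (-0.04, adjusted p = 0.803 for Hif1a and 0.01, adjusted p = 0.985 for Arnt). Egln3 read 9.68 and 9.90 in KD1 and 7.44 and 7.84 in scrambled RA (log2 difference 2.15, SE 0.46, adjusted p = 0.0162), and this call was lost whichever of the 4 RA arrays was left out (adjusted p from 0.0611 to 0.133). Egln1 was not called (0.25, adjusted p = 0.637).

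The collagen prolyl 4-hydroxylase genes, whose enzyme needs oxygen and shapes secreted collagen, came next. P4ha2 read 11.39 and 11.34 in KD1 RA against 8.84 and 8.89 in scrambled RA (log2 difference 2.50, SE 0.25, adjusted p = 0.000332). P4ha1 read 12.56 and 12.61 against 10.29 and 10.29 (log2 difference 2.30, SE 0.30, adjusted p = 0.00165). Both genes stood above every scrambled array, ESC included. Adm, the member that fell, read 6.68 and 6.72 in KD1 and 7.79 and 7.56 in scrambled RA (log2 difference -0.97, SE 0.13, adjusted p = 0.00149), and the KD1 arrays lay just above its ESC arrays. All of its arrays were dim, below the median of 7.86 over all gene values. Among the other effectors Bnip3 (0.87, adjusted p = 0.264), Vegfa (0.64, adjusted p = 0.169) and Kdm3a (-0.48, adjusted p = 0.0578) were not called. The RA arrays were nonetheless separate, with Bnip3 at 10.19 and 10.29 in KD1 against 9.31 and 9.42 in scrambled cells. Vegfa read 10.50 and 10.60 against 9.89 and 9.94. The fit pools the spread of ESC and RA arrays. For Bnip3 the SD was 0.78 in scrambled and 0.98 in KD1 ESC, and 0.08 in RA of either line.

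All 4 transporters rose. Slc2a3 read 12.77 and 12.76 in KD1 and 11.32 and 11.97 in scrambled RA (log2 difference 1.12, SE 0.20, adjusted p = 0.00754). Slc16a1 read 12.004 and 11.84 against 10.75 and 11.07 (log2 difference 1.01, SE 0.17, adjusted p = 0.00522). Both differences exceeded 1 on the log2 scale, and Slc16a1 in KD1 RA lay above the scrambled ESC arrays as well. Slc16a3 read 10.44 and 10.66 against 9.92 and 9.84 (log2 difference 0.66, SE 0.12, adjusted p = 0.00642), still below the ESC level. Slc2a1 read 13.23 and 13.27 against 12.79 and 12.94 (log2 difference 0.38, SE 0.08, adjusted p = 0.0139). Left out 1 at a time, the RA arrays ended the Slc2a1 call in 3 of 4 fits (all but the one without RA Scrambled replicate 2), the Slc2a3 call without either KD1 array (adjusted p = 0.0576 and 0.0706), the Slc16a1 call without KD1 replicate 1 (0.0544) and the Slc16a3 call without KD1 replicate 2 (0.0876).

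Of the 8 measured enzymes of the early steps 3 rose. Pfkl read 11.58 and 11.69 in KD1 RA and 9.70 and 9.82 in scrambled RA (log2 difference 1.88, SE 0.17, adjusted p = 0.000237), 3.68-fold higher, and so lay within the range of the scrambled ESC arrays. The other phosphofructokinase genes were not called, with 0.52, adjusted p = 0.251 for Pfkp and -0.49, adjusted p = 0.0833 for Pfkm. Tpi1 read 12.54 and 12.74 and 12.49 and 12.68 on the scrambled and KD1 ESC arrays, 12.39 and 12.47 in KD1 RA and 11.69 and 11.88 in scrambled RA (log2 difference 0.64, SE 0.10, adjusted p = 0.00337). Aldoa read 13.06 and 13.06 against 12.57 and 12.63 (log2 difference 0.46, SE 0.06, adjusted p = 0.00195), while Aldoc was not called (0.34, adjusted p = 0.667). The Tpi1 call was lost without RA KD1 replicate 2 (adjusted p = 0.0502). The isoenzymes called as risen were thus 1 of 3 phosphofructokinase genes and 1 of 2 aldolase genes. Pfkp read 8.41 and 8.61 in KD1 RA against 7.79 and 8.19 in scrambled RA, and Aldoc 8.47 and 8.37 against 8.15 and 8.02. In both, the KD1 arrays lay above the scrambled ones, while in Pfkm they lay below. Whether the isoenzymes differed from each other was not tested.

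In the later steps 2 of 6 rose. Ldha read 12.95 and 12.95 in KD1 and 12.27 and 12.24 in scrambled RA, 1.62-fold higher (log2 difference 0.69, SE 0.05, adjusted p = 3.77e-05), the lowest adjusted p of the members. Ldhb lay the other way and was not called (-0.78, adjusted p = 0.142). Pgk1 read 12.71 and 12.71 against 12.01 and 11.99 (log2 difference 0.71, SE 0.12, adjusted p = 0.00514). The Pgk1 call was lost without RA KD1 replicate 2 (adjusted p = 0.0574). Ldha and Pgk1 in KD1 RA lay between the scrambled RA and the scrambled ESC arrays. Pkm was not called by its brighter probe set (0.13, adjusted p = 0.322), whereas its second probe set gave 0.31 (adjusted p = 0.0216). Of the 4 regulators of flux 0 were called, with Pdk3 (-0.37, adjusted p = 0.0748) the nearest. Among the 13 members that rose, both KD1 RA arrays lay above both scrambled ESC arrays for 4, below both for 7 and among them for 2.

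Markers of other cell types moved between the same groups. Of 16 extraembryonic endoderm markers 14 rose and 0 fell in KD1 against scrambled cells in RA, with a median log2 difference of 2.06. The list's mean signal was 11.02 and 11.07 on the KD1 RA arrays, 8.94 and 9.09 on the scrambled RA arrays and 7.60 to 8.03 on the scrambled and KD1 ESC arrays. Of 11 endothelial markers 3 rose and 2 fell, with Cdh5 at 1.34 and Pecam1 at -0.82. Flt1, given further on among the HIF targets, was also among those that rose. The endothelial list's mean was 7.87 to 7.92 on the KD1 RA arrays against 7.38 to 7.52 on the scrambled RA arrays. It was 7.79 to 7.87 on the scrambled and KD1 ESC arrays. Of 10 mesenchymal markers 4 fell and 0 rose, and of 14 naive stem cell markers 4 rose and 2 fell. The part of these cell types in the members' differences was not tested.

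Whether the change from ESC to RA differed between the lines was tested as an interaction on the 8 arrays. Of the 38 members 11 were more positive and 1, Adm, more negative in KD1 than in scrambled cells, where 4.82% of all genes were called, 2.53% as more positive and 2.29% as more negative. The largest were P4ha2 (log2 difference 3.03, SE 0.35, adjusted p = 0.00216) and Epas1 (log2 difference 2.72, SE 0.34, adjusted p = 0.00309), followed by P4ha1 (log2 difference 2.44, SE 0.43, adjusted p = 0.0149). Of the enzymes Pfkl (log2 difference 1.80, SE 0.25, adjusted p = 0.00463) and Ldha (log2 difference 0.79, SE 0.06, adjusted p = 0.000467) were called. So were Pgk1 (0.73), Tpi1 (0.70), Aldoa (0.48), Slc2a3 (1.23), Slc16a1 (1.20) and Slc16a3 (0.82). Egln3 (1.51, adjusted p = 0.268), Slc2a1 (0.32, adjusted p = 0.168), Ankrd37 (0.90, adjusted p = 0.061) and Bnip3 (1.38, adjusted p = 0.285) were not, so a different RA response of those genes was not shown. With all 12 arrays in the fit 0 members were called (15 at an unadjusted p below 0.05, and 0.261% of genes called), with 0.0642 the adjusted p of Epas1. Epas1, Ldha, P4ha2 and Pfkl kept their call whichever of the 8 arrays was left out, and the count was 4 without RA Scrambled replicate 1 or either RA KD1 array and 6 without ESC KD1 replicate 1.

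KD2 was read from arrays of which 1 in each state resembled the other state. In RA, 3 of 38 members rose against scrambled cells and 0 fell on all 12 arrays, where 0.271% of all genes were called, 0.0251% as risen and 0.246% as fallen. These were Slc16a3 (log2 difference 1.41, SE 0.19, adjusted p = 0.0373), Ldha (log2 difference 0.83, SE 0.12, adjusted p = 0.044) and Slc2a1 (log2 difference 0.53, SE 0.08, adjusted p = 0.0404). Slc2a1 read 13.40 and 13.40 on the RA KD2 arrays, above 12.79 and 12.94 on the scrambled ones. Ldha read 12.91 on replicate 1 and 13.26 on replicate 2, and Slc16a3 11.01 and 11.58. In these genes both KD2 arrays lay above both scrambled RA arrays, also the array that resembled RA cells. On 10 arrays, with 1 KD2 array per state, whose spread is borrowed from the remaining groups, 4 members rose, where 0.963% of genes were called and 0.326% rose. Slc2a1 (0.53), Ldha (0.65), Slc16a3 (1.13) and Aldoa (log2 difference 0.52, SE 0.08, adjusted p = 0.0196) made up the 4. Aldoa read 13.12 on RA KD2 replicate 1 and 13.51 on replicate 2. The count was 0 without either RA Scrambled array or RA KD2 replicate 2, in fits that keep ESC KD2 replicate 2, and 15 without RA KD2 replicate 1, where the array left is the one that resembled ESC.

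For the other members that were called in KD1 the KD2 values on RA replicate 1 are given beside those of replicate 2, which resembled ESC. Epas1 read 10.29 and 10.43, between the scrambled and the KD1 RA arrays (1.19, adjusted p = 0.25 on 12 arrays, and 1.11 with adjusted p = 0.154 on 10). Pfkl read 10.71 and 11.86 (1.53, adjusted p = 0.169, and 0.95 with adjusted p = 0.0974 on 10). Replicate 1 of KD2 thus lay above the scrambled RA arrays for Epas1 and for Pfkl, with neither gene called. On that 1 array the same held for all 13 members that rose in KD1 in RA. P4ha1 read 10.89 and 10.60, and P4ha2 9.70 and 8.37. Egln3 read 8.997 and 11.69, Slc2a3 12.61 and 13.30, and Slc16a1 11.37 and 11.07. Pgk1 read 12.59 and 13.21, Tpi1 12.25 and 12.78, and Adm 7.30 and 6.92. None of these 10 genes was called between KD2 and scrambled cells in RA, on 12 or on 10 arrays. Both KD lines are set against the same scrambled arrays.

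In ESC, 0 of 38 members were called between KD2 and scrambled cells on all 12 arrays (2 at an unadjusted p below 0.05, and 0.0853% of genes called) and 0 on 10 arrays, where 0.988% of genes were called. From ESC to RA in KD2, 0 members were called on all 12 arrays, 0 at an unadjusted p below 0.05, with 0% of genes called and 344 genes at an unadjusted p below 0.05. On 10 arrays 6 members fell and 5 rose, where 20.5% of genes were called, 9.46% as fallen and 11% as risen. Pdk1 read 11.28 on ESC KD2 replicate 1 and 9.12 on RA KD2 replicate 1 (log2 difference -2.17, SE 0.22, adjusted p = 0.000371), and Pfkp 10.88 and 8.38 (log2 difference -2.49, SE 0.35, adjusted p = 0.00179). The arrays labelled replicate 2 showed the opposite order, with 9.46 in ESC and 11.62 in RA for Pdk1. Hk2, Ldha, Ldhb and Kdm3a also fell, and Eno2, Pdk3, P4ha2, Vegfa and Adm rose, by 0.80 for Adm and 1.55 for P4ha2.

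KD1 and KD2 differed in RA in few members. On 12 arrays Epas1 alone was higher in KD1 (log2 difference 2.11, SE 0.33, adjusted p = 0.021) and 0 were lower, where 1.34% of genes were called, 1.18% as higher and 0.16% as lower. On 10 arrays Epas1 (log2 difference 2.18, SE 0.30, adjusted p = 0.00489), P4ha1 (log2 difference 1.70, SE 0.37, adjusted p = 0.0423) and P4ha2 (log2 difference 1.66, SE 0.30, adjusted p = 0.0197) were higher, where 3.72% of genes were called and 2.41% were higher. The Epas1 call on 12 arrays was lost in 3 of the 4 fits that left out 1 array (all but the one without RA KD2 replicate 1, in which 9 members were called). P4ha1 read 12.56 and 12.61 in KD1 against 10.89 on RA KD2 replicate 1, which in turn lay above 10.29 and 10.29 in scrambled cells.

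Other genes of the same pathways were counted on lists that hold no member. Of 36 further HIF target genes 6 rose and 3 fell between KD1 and scrambled cells in RA. Flt1, a VEGF receptor that is also on the endothelial list, rose by 3.11, Car12, a membrane carbonic anhydrase, by 1.88 and Plod2, a collagen lysyl hydroxylase, by 1.76. Stc1 fell by 0.91, Lox, a collagen cross-linking enzyme, by 0.67 and Kdm5b by 0.39. The list's median was 0.04. Of 11 further HIF regulators Cited2, which competes with HIF for its coactivator, rose by 0.57 and Arnt2, a relative of Arnt, fell by 0.96. Of 16 other glycolytic isoenzymes and transporters Hkdc1, a hexokinase relative, rose by 3.56 and Pfkfb2 by 1.07, while Slc16a7 fell by 0.95 and Slc2a4, the insulin-responsive GLUT4, by 0.78. Of 7 pentose phosphate genes 3 rose, Rpia by 0.52, Rpe by 0.44 and Tkt by 0.44. In the lists around the mitochondrion Pdk2 rose by 1.02 among 11 genes of pyruvate entry and Sucla2 by 0.89 among 17 of the citric acid cycle, and 0 of 7 gluconeogenic genes were called. The share of all genes called in that comparison was 12.1%, as above.

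From ESC to RA in scrambled cells, where 42.6% of all genes were called, 10 of the 36 further HIF targets fell and 6 rose, with Tmem45a at -1.92 and Ccng2, an atypical cyclin, at 2.04. Of 11 further HIF regulators 6 rose and 2 fell, with Arnt2 at 1.56, Os9 at 1.12 and Cited2 at 0.90. Of 17 citric acid cycle genes 7 fell and 0 rose, led by Idh3a at -1.24, and of 11 genes of pyruvate entry 6 fell and 1 rose, with Pdk4, another pyruvate dehydrogenase kinase, at -1.37 and Pdk2 at 0.92. Of 7 pentose phosphate genes 3 fell and 2 rose, with Tkt at -0.91 and H6pd at 1.25. Between KD1 and scrambled stem cells, where 1.94% of all genes were called, Cited2 (0.64) and Sucla2 (0.67) rose and Tmem45a (-1.20), Ak4 (-0.77) and the testis lactate dehydrogenase Ldhc (-0.87) fell. Cited2 and Sucla2 were thus higher in KD1 in both states.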

How the data were processed

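The deposited values are log2 signals. The submitters' processing notes name RMA, without a version, as the method the authors used, which corrects background, normalises between arrays and gives 1 value for each of 35556 probe sets. The platform annotation listed 23410 of them, 21789 with 1 symbol, and 21698 of these matched RefSeq (GRCm38.p6) by gene ID. The brightest 1-symbol probe set per gene gave 19938 genes. Limma 3.58.1 in R 4.3.3 fitted group means with an intensity trend on 8 arrays (4 residual and 4.94 prior degrees of freedom), 12 arrays (6 and 2.76) or 10 arrays (4 and 4.93). Two-sided p-values received the Benjamini-Hochberg adjustment across all genes, with calls below 0.05. A set of 23 members, chosen by calls, size of change and isoenzyme families, is given on single arrays. Members and lists were chosen with earlier results of these data known. P-values here reflect how far arrays differed that are labelled biological replicates of the same lines, and 2 arrays per group limit the precision. The fits were tested on simulated arrays with independent noise, with 50 changed genes per size. For the 8-array fit this setting differs from the data. There 12.1% of genes were called for KD1 against scrambled cells in RA, a larger share than was changed in the simulation, so recovery may differ. The 8-array fit recovered 22% of log2 changes of 0.5, 68% of 1 and 96% of 2. The 12-array fit for KD2 recovered 10%, 62% and 84%. False calls were 9 of 150 and 7 of 134. A gene that was not called may therefore have changed. Figures used matplotlib 3.10.9.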

Additional observations from a re-analysis of the deposited data

Results flagged for a closer look

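The difference between lines in the change from ESC to RA (KD1 minus scrambled, log2) passed the test of the difference itself by limma in 12 members, each from 2 arrays per group. The values were 3.03 for P4ha2, 2.72 for Epas1, 2.44 for P4ha1, 1.80 for Pfkl, 1.23 for Slc2a3 and 1.20 for Slc16a1. They were 0.82 for Slc16a3, 0.79 for Ldha, 0.73 for Pgk1, 0.70 for Tpi1 and 0.48 for Aldoa, and -0.98 for Adm. The adjusted p was lowest for Ldha (0.000467) and highest for Slc2a3 (0.0442). In Epas1 the lines moved in opposite directions, -1.52 in scrambled and 1.21 in KD1 cells, and both changes were called. In 7 of the other genes the RA arrays lay below the ESC arrays in scrambled cells by a called difference: Slc2a3, Slc16a3, Pfkl, Aldoa, Tpi1, Pgk1 and Ldha. Extraembryonic endoderm markers differed the same way between the lines, with 11 of 16 called more positive in KD1, and their part in these values was not tested. Groups of 2 arrays are too small for a search for outlying samples within a group. The 2 KD2 arrays that resembled the other state were found by correlation with the arrays of both states.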

How the results depend on the processing

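Under the alternatives run, the direction of no called member reversed. The 12-array fit gave 16 called members (2751 genes) for RA against ESC in scrambled cells, 8 (2249) in KD1, 6 (463) for KD1 against scrambled in RA and 0 (52) for the interaction; KD1 against scrambled in ESC had 13 genes. On 10 arrays KD2 against scrambled had 197 genes in ESC and 192 in RA, RA against ESC in KD2 11 members (4090 genes) and KD1 against KD2 3 members (742). Without the trend, KD2 against scrambled gave 9 genes in ESC and 1 member (32 genes) in RA, and with bright genes only 0 genes in ESC and 0 members (2 genes) in RA.

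The labels name no shared day or batch for the replicate numbers, so the samples share only a number; replicate differences of scrambled and KD1 correlated at 0.633 in ESC and 0.150 in RA over genes, and at -0.0193 to 0.068 between states. Those of KD2 correlated at 0.141 to 0.251 with the other groups of their state, at -0.864 between its own 2 states and at -0.102 to 0.105 with the other groups of the other state. With a replicate block, 1 member was called for KD1 against scrambled in ESC and 1 (12 genes) for KD2 against scrambled in RA, with 8 genes for KD2 in ESC. With a replicate block within each state the counts were 9 members (2 rose and 7 fell, 2100 genes) for KD1 in ESC, 25 (19 rose and 6 fell, 4797 genes) for KD1 in RA and 21 (19 and 2, 2874 genes) for the interaction. They were 2 genes for KD2 in ESC, 1 member for KD2 in RA and 2 for KD1 against KD2. The cause was not tested for any of these shifts.

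Leaving out 1 array at a time gave 23 to 28 members (6294 to 8106 genes) for RA against ESC in scrambled cells and 15 to 21 (5550 to 6848) in KD1. It gave 0 to 2 (131 to 576) for KD1 against scrambled in ESC, 8 to 13 (726 to 1373) in RA and 4 to 13 (303 to 1156) for the interaction. For KD2 against scrambled the range was 0 members (3 to 15 genes) in ESC and 0 to 15 (5 to 1018) in RA, for RA against ESC in KD2 0 members (0 genes), and for KD1 against KD2 0 to 9 (30 to 1254). Where an array was alone in its group, the spread came from the remaining groups. The number of arrays limits all of these values.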

Other observations

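Genes outside the member list but in the same pathways also differed in their change from ESC to RA between the lines, as tested by the interaction on 8 arrays with limma. Of 36 further HIF target genes 5 were more positive in KD1 and 1 more negative, where 4.82% of all genes were called, 2.53% as more positive and 2.29% as more negative. Flt1 rose by 3.61 in KD1 and by 0.70 in scrambled cells (interaction 2.91, adjusted p = 0.000107). Car12 (2.45, adjusted p = 0.00623), Plod2 (2.13, adjusted p = 0.0238), Ak4 (1.42, adjusted p = 0.00278) and Tmem45a (1.25, adjusted p = 0.0352) followed, and Kdm5b, a histone demethylase, stood at -0.69 (adjusted p = 0.0106). Hkdc1 rose by 3.70 in KD1 and was not called in scrambled cells (interaction 3.31, adjusted p = 0.000113). The testis isoenzyme Ldhc had an interaction of 1.19 (adjusted p = 0.00942) and the transporter Slc16a7 of -1.05 (adjusted p = 0.00312). Differences in ESC enter the interaction, and Ak4, Tmem45a and Ldhc were already called lower in KD1 than in scrambled stem cells. In the lists of HIF regulators, gluconeogenesis, pentose phosphate, pyruvate entry and citric acid cycle 0 genes passed the interaction. Between KD1 and KD2 in RA, on 12 arrays, Hkdc1 (3.08), Flt1 (2.15), Car12 (1.95) and Rpia (1.11) were called higher in KD1.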
